A study of Mus musculus with 8 samples.

Results

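The 10 immediate early genes described here are Fos, Fosb, Jun, Junb, Jund, Egr1, Egr2, Egr3, Ier2 and Nr4a1. They were measured on whole-blood arrays of mice exposed to chronic restraint stress (RST) and of control mice. Members were chosen by name. Every probe set whose only gene symbol in the platform annotation is one of these names was taken, which gave 14 of the 45101 probe sets on the array. The RST group was 4 female C57BL/6J mice, aged 6 to 8 weeks at purchase, that were placed in ventilated tubes for 6 h a day and killed on Day 7. The control group was 4 female mice of the same strain and age range that stayed in their cages with food and water withheld while the others were restrained. Mice of both groups were killed by CO2 asphyxiation and bled by cardiac puncture, which the methods place in the morning. The time between the last restraint and blood collection is not given in the sources used here. RNA of each mouse was amplified and hybridized to its own Affymetrix GeneChip, on which a probe set is a group of short oligonucleotides that read 1 transcript. The authors' table holds 1 log2 level for each probe set and mouse.

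Immediate early genes are transcribed within minutes of a stimulus from factors that the cell already holds, so that no new protein is needed, and most of their transcripts are short-lived. FOS and JUN proteins pair through leucine zippers to form the transcription factor AP-1, EGR proteins are zinc finger factors, NR4A1 is an orphan nuclear receptor, and IER2 is a nuclear protein of the same early wave. In blood these genes respond to antigen receptors, adhesion, cytokines and handling of the cells, and the glucocorticoid receptor is known to interfere with AP-1.

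Promoter sequence is shown for 3 members whose windows hold DNA elements that can receive early signals. RefSeq windows (GRCm38.p6) were matched by symbol for 7 of the 10 members, Fos, Fosb, Jun, Junb, Jund, Egr2 and Nr4a1. The lines give the 150 bases before the annotated transcription start, 5′ to 3′ on the strand of the gene. Capitals mark the core of the cAMP response element, TGACG or its reverse complement CGTCA, which binds CREB proteins, and the CArG box, which binds serum response factor.
Fos, chr12:85473740-85473889, plus strand: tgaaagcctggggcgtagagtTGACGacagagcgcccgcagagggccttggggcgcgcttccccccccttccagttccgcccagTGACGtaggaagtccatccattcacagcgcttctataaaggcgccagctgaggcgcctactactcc
Egr2, chr10:67537719-67537868, plus strand: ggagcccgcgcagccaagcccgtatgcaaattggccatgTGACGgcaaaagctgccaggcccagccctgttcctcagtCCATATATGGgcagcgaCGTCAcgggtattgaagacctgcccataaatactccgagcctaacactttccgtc
Nr4a1, chr15:101266696-101266845, plus strand: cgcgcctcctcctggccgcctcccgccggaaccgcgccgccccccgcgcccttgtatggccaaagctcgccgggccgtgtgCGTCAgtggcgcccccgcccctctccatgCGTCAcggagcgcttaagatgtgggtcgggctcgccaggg
Egr2 has several windows in the table, and the one shown holds both elements. In the full 250 bases before the start, the TGACG core was found on either strand in 5 of the 7 members (Fos, Fosb, Junb, Egr2 and Nr4a1), and it occurs in 17.8% of all 32851 such windows. The CArG box, CCWWWWWWGG with W for A or T, was found in Egr2 alone of these 7. It occurs in 1.47% of all windows. A member was counted if any of its windows matched, and the 7 members have 11 windows. Member counts and window shares are therefore not on like terms. Bases further upstream were not searched. The motifs were counted with overlaps allowed, and a match describes letters, not binding. The AP-1 site, TGANTCA, was in none of the 7 members (6.75% of all windows), and the EGR site, GCGNGGGCG, was in Fosb and Nr4a1 (4.7% of all windows).

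Of the 14 probe sets, 12 were brighter than the array median in 2 or more mice of either group and entered the test. These 12 represent 9 genes. Fosb, at its single probe set, and the dimmer of the Jund probe sets did not reach this filter and are given as values without a call. The 7 lists of blood cell markers had 49 genes with a singly named probe set, and 48 of them passed the same filter (all but Pax5), among them Ppbp of platelets, S100a8 of neutrophils, Cd79b of B cells and Epb42 of reticulocytes. The arrays were not on one level. RST mouse 4 ranked lowest of all mice in 41.5% of the 25084 tested probe sets, and the hybridization controls averaged 12.35 to 12.73 in RST mice, against 11.90 and 11.93 in control mice 2 and 1 and 12.60 and 12.74 in control mice 4 and 3. The 3′ minus 5′ difference of the Gapdh control probe sets, a sign of RNA length, was 1.42 to 1.80 in RST mice and 1.55 to 2.07 in control mice. The same difference for actin was 0.57 to 1.06 in RST mice, against 0.61 to 0.73 in control mice 1, 2 and 4 and 1.67 in control mouse 3. Control mouse 3 was the lowest of the 8 mice for Fos and for the brighter Jun and Egr2 probe sets. Without it their log2 fold changes were 0.53, −0.48 and −0.83. The median gene had a log2 fold change (RST minus control) of −0.24 as deposited, −0.051 after quantile normalization, −0.45 with the control probe sets set equal and 0.020 with the tested probe sets at an equal median. Member changes are therefore also given relative to the median gene.

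No immediate early gene passed the test of RST against control blood in limma after adjustment over all tested probe sets (smallest adjusted p = 0.36, for Egr1). Across the array the adjusted threshold with a fold above 1.5 called 0 probe sets as well, or 0%, while 3419 had an unadjusted p under 0.05. With a trended, robust prior limma called 35, none of them a member. The methods' analysis of variance, run here on the deposited values past the intensity filter, called 0 after adjustment. At unadjusted p under 0.05 and fold above 1.5 it took 2264. The paper filtered by presence calls and reports genes past its own limits, so these counts do not repeat its analysis. In whole blood, fewer cells of a type and less RNA per cell cannot be told apart, for any result given here. Among the members, each at its brightest probe set, the RST mean was furthest below control for Egr1 and furthest above it for Fos, and neither gene separated the groups. Under a looser threshold (unadjusted p under 0.05, fold above 1.5), 1 of the 12 tested member probe sets (Egr1) was lower in RST mice, where 10.4% of all tested probe sets were. On the same terms 0 of 12 were higher, where 2.89% were. The RST and control values overlapped for each of the 12, whereas 7.99% of tested probe sets did not overlap in one direction or the other. The member counts are close to or below these shares. Over the 10 genes, each at its brightest probe set, the RST mean was above control for 4 and below it for 6, with a median log2 fold change of −0.13. Of all 11762 genes with a tested probe set, 67.6% had a lower mean. On the same terms, without Fosb, 3 of the 9 tested member genes were above control and 6 below. Their median was −0.25, beside −0.24 for the median gene.

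**Figure D1:**
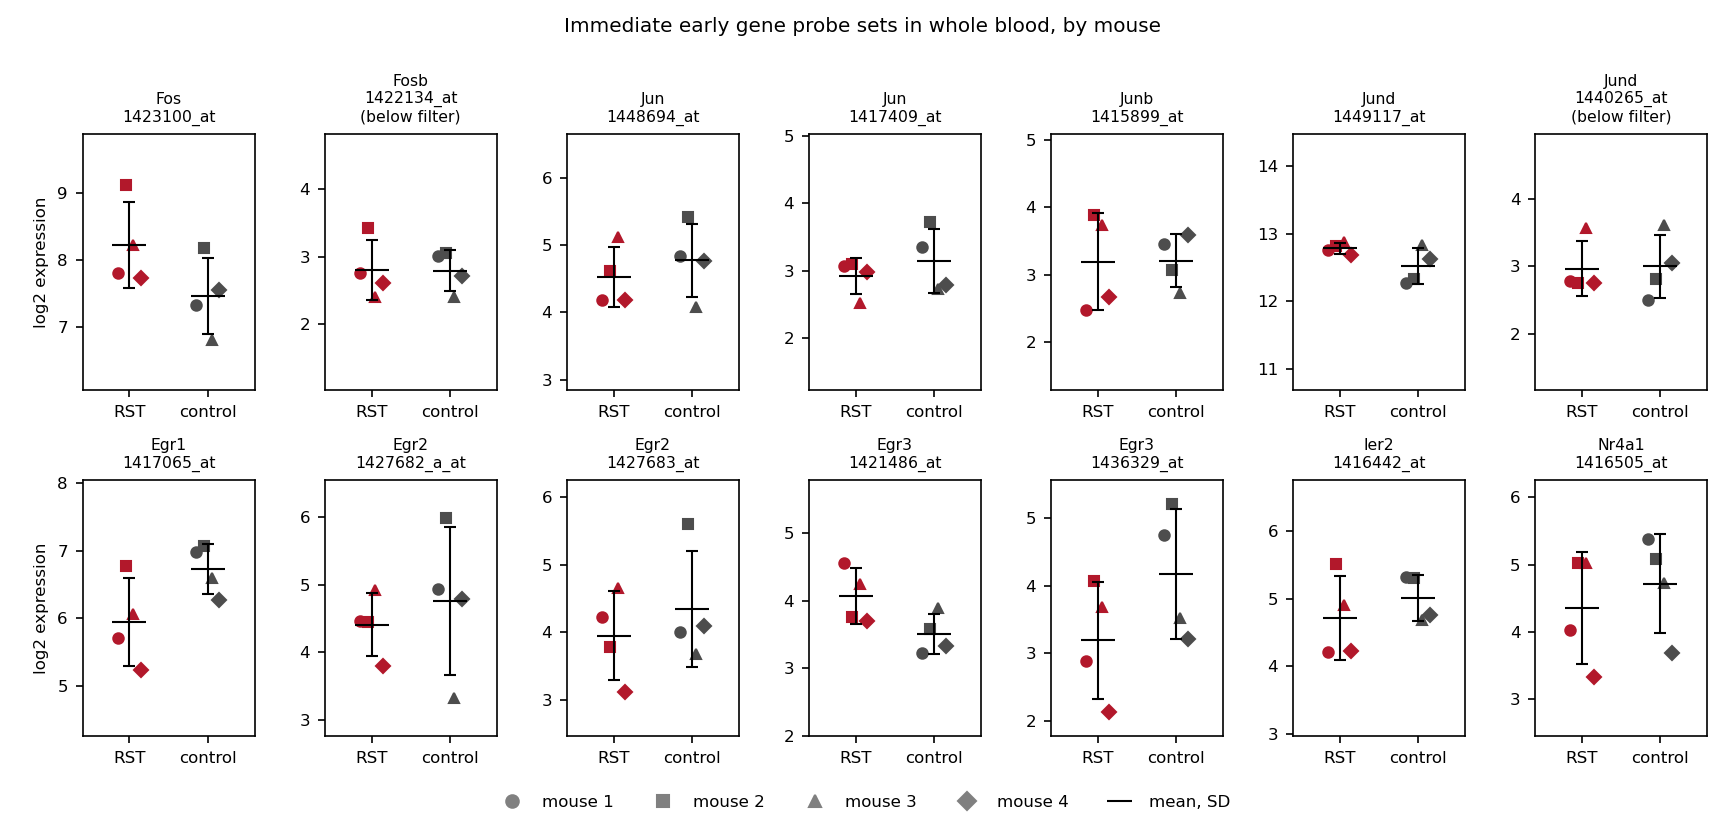
Log2 expression of the 14 immediate early gene probe sets in whole blood, 1 point per mouse (4 RST, 4 control), with symbols for mouse number and bars for mean ± SD. Each vertical axis spans the same number of log2 units. RST and control points overlap in every panel. Fos lies highest in RST mouse 2 at 9.11 and Egr1 lowest in RST mouse 4 at 5.23.

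Fos, which encodes the FOS partner of AP-1, had log2 levels of 7.81, 9.11, 8.23 and 7.74 in RST mice 1 to 4, against 7.33, 8.18, 6.82 and 7.56 in control mice 1 to 4. All 4 RST mice lay above the control mean, 2 of them above every control mouse, and control mouse 2 lay among the RST values. Mean levels were 8.22 ± 0.63 in RST and 7.47 ± 0.56 in control mice (SD, n = 4 each). The difference was 0.75 on the log2 scale (standard error 0.38, 95% confidence interval −0.079 to 1.58), or 1.68-fold. The adjusted p = 0.39 from limma did not pass. Relative to the median gene the change was 1.00. It was 0.45 without RST mouse 2, the mouse with the highest level, and between 0.53 and 0.99 on leaving out any other single mouse. With quantile normalization it was 0.93 and with equal medians 1.02, and in both settings its unadjusted p was under 0.05 (adjusted p = 0.26 and adjusted p = 0.25). With the control probe sets set equal it was 0.55 (adjusted p = 0.45), and there, as in the methods' analysis of variance (adjusted p = 0.48), the unadjusted p was not under 0.05.

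Fosb, a FOS relative known best from neurons, was dim. Its values were 2.76, 3.43, 2.41 and 2.61 in RST mice, against 3.01, 3.05, 2.41 and 2.71 in control mice, and 1 of the 8 arrays had it above the array median. Mean levels were 2.80 ± 0.44 in RST and 2.79 ± 0.30 in control mice, with a 95% interval of the difference from −0.57 to 0.58.

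Jun, the founding partner of FOS, was read by 2 probe sets. The brighter one had 4.18, 4.61, 5.12 and 4.18 in RST mice, against 4.83, 5.41, 4.07 and 4.77 in control mice. RST mouse 3 was the highest of its group and control mouse 3 the lowest of its group. The log2 fold change was −0.25 (standard error 0.34, adjusted p = 0.75), close to that of the median gene, and it was 0.0083 after quantile normalization and 0.017 with equal medians. The dimmer probe set had 2.53 to 3.10 in RST and 2.72 to 3.72 in control mice, with a difference of −0.22 (standard error 0.30).

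Junb, which competes with JUN for partners and restrains myeloid growth in mice, had RST values on both sides of the control values. Its levels were 2.48, 3.89, 3.74 and 2.67 in RST mice, against 3.46, 3.07, 2.72 and 3.59 in control mice. RST mice 2 and 3 lay above every control mouse and RST mice 1 and 4 below every one. The means were 3.19 ± 0.72 in RST and 3.21 ± 0.39 in control mice (difference −0.015, 95% interval −0.83 to 0.80), and 4 of the 8 arrays had the probe set above the array median.

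Jund, the JUN member that is expressed without a stimulus in most cells, had 12.76, 12.82, 12.88 and 12.69 in RST mice at its bright probe set, against 12.28, 12.33, 12.84 and 12.64 in control mice. The RST mice lay within 0.19 log2 units of each other and all above the control mean. The log2 fold change of 0.27 (standard error 0.25, 95% interval −0.27 to 0.81) had an adjusted p = 0.62. The low control values were those of mice 1 and 2, the mice with the lowest hybridization controls, and without these mice the change was 0.051. At the dim probe set, below the filter, Jund had 2.78, 2.75, 3.58 and 2.75 in RST mice, against 2.51, 2.82, 3.62 and 3.06 in control mice.

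Egr1, an EGR factor induced by growth factors and antigen, had log2 levels of 5.72, 6.78, 6.06 and 5.23 in RST mice 1 to 4, against 6.98, 7.07, 6.60 and 6.27 in control mice 1 to 4. Of the RST mice, 3 lay below every control mouse, and RST mouse 2 lay within the control range. Means were 5.95 ± 0.65 in RST and 6.73 ± 0.37 in control mice. The difference was −0.78 on the log2 scale (standard error 0.35, 95% interval −1.55 to −0.015), or 0.58 of the control level. The unadjusted p was 0.046 and the adjusted p = 0.36. Relative to the median gene the change was −0.54. It was −1.06 when RST mouse 2 was left out and −0.54 when RST mouse 4 was, and of the 8 fits that left out 1 mouse the unadjusted p stayed under 0.05 in those without RST mouse 2 and without control mouse 4 only. It was −0.46 after quantile normalization and −0.52 with equal medians, where the unadjusted p was not under 0.05, and −0.49 without control mice 1 and 2. With the control probe sets set equal it was −0.99, where the unadjusted p was under 0.05 (adjusted p = 0.24).

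Egr2, an EGR factor of T cell tolerance and of macrophages, was read by 2 probe sets that gave the same sign. The first had 4.47, 4.45, 4.92 and 3.80 in RST mice, against 4.94, 5.99, 3.32 and 4.80 in control mice, so that the control mice spanned 2.67 log2 units and enclosed all RST mice. The second had 4.23, 3.79, 4.66 and 3.11 in RST mice, against 4.00, 5.60, 3.67 and 4.09 in control mice. Log2 fold changes were −0.35 (standard error 0.48) and −0.39 (standard error 0.45), with an adjusted p = 0.75 and an adjusted p = 0.70. Without control mouse 2, the highest at both, the first was 0.057.

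Egr3, which acts with EGR2 in T cells, gave opposite signs at its 2 probe sets. The brighter probe set had 4.56, 3.76, 4.25 and 3.71 in RST mice, against 3.22, 3.57, 3.89 and 3.33 in control mice. All RST values were above the control mean, and control mouse 3 lay among them. Its log2 fold change was 0.57 (standard error 0.29, adjusted p = 0.40). The dimmer probe set had 2.88, 4.07, 3.69 and 2.13 in RST mice, against 4.75, 5.21, 3.53 and 3.21 in control mice. All RST values were below the control mean there, and the log2 fold change was −0.98 (standard error 0.52, adjusted p = 0.40). The mean of both probe sets gave −0.21, so Egr3 has no single direction in these data. Within an array, the brighter minus the dimmer was 1.69, −0.31, 0.56 and 1.58 in RST mice, against −1.53, −1.64, 0.36 and 0.12 in control mice.

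Ier2 had 4.21, 5.52, 4.91 and 4.22 in RST mice, against 5.31, 5.30, 4.68 and 4.76 in control mice. RST mouse 2 was the highest of the 8 mice, and RST mice 1 and 4 were below every control mouse. The log2 fold change was −0.30 (standard error 0.34, adjusted p = 0.70), or −0.056 relative to the median gene. Nr4a1, a reporter gene of antigen receptor signaling, had 4.04, 5.03, 5.03 and 3.33 in RST mice, against 5.38, 5.08, 4.73 and 3.69 in control mice. Each group held a low mouse 4, and no RST mouse was above every control mouse. The log2 fold change was −0.36 (standard error 0.46, adjusted p = 0.73), or −0.12 relative to the median gene.

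**Figure D2:**
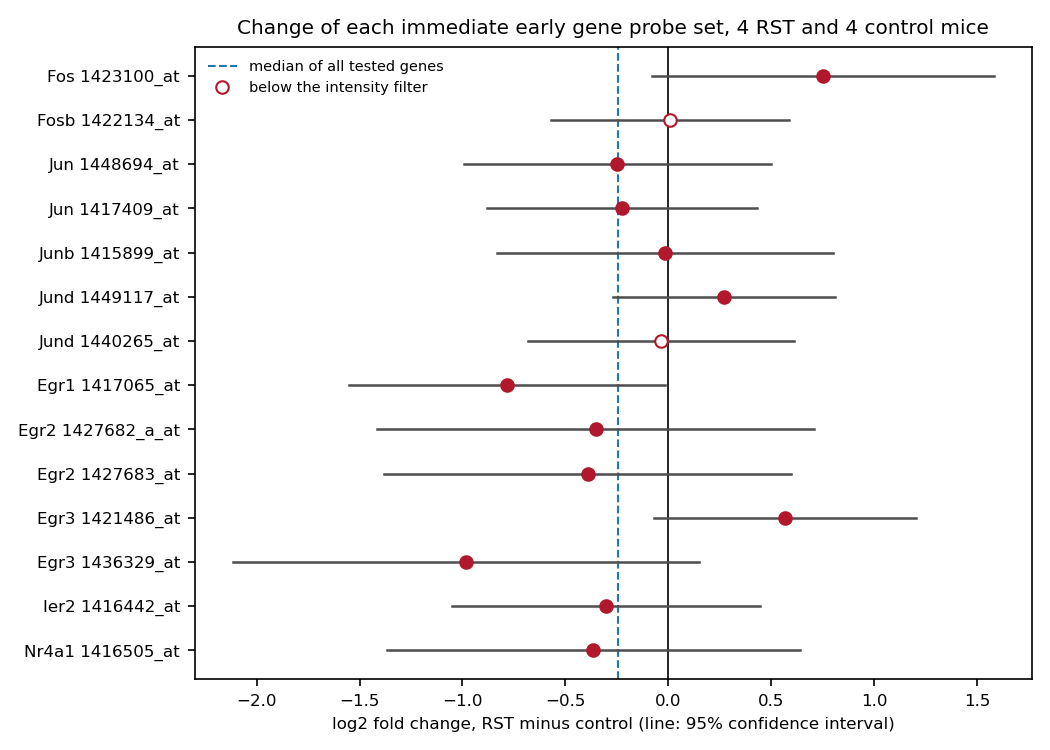
Log2 fold change (RST minus control, 4 mice each) of the 14 immediate early gene probe sets with 95% confidence intervals, open circles for probe sets below the intensity filter and a dashed line at the median of all tested genes (−0.24). The Egr1 interval ends at −0.015, every other interval includes 0, and the Egr3 probe sets lie on opposite sides at 0.57 and −0.98.

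Of the 12 tested member probe sets, RST mouse 2 had the highest value at 3 and control mouse 2 at 6, where over all tested probe sets they were highest in 14.3% and 22.5%. The 6 count both probe sets of Jun and both of Egr2, beside Egr1 and the dimmer Egr3 probe set, so they are not 6 genes. RST mouse 4 had the lowest value at 4 of the 12, where it was lowest in 41.5% of all tested probe sets. The remaining lowest values were those of RST mouse 1 at 2, RST mouse 3 at 1, control mouse 1 at 2 and control mouse 3 at 3. Differences between member genes within an array do not depend on the scaling by a common offset. Fos minus Egr1 was 2.10, 2.33, 2.16 and 2.50 log2 units in RST mice, against 0.35, 1.11, 0.22 and 1.28 in control mice, a pair picked after the values were seen. Of the 36 pairs of tested member genes, 4 had differences that did not overlap between the groups: Fos minus Egr1, Fos minus Jun, Fos minus Ier2 and Egr1 minus Ier2. Over all pairs of the 11762 genes that share was 8.42%, so 4 of 36 is near the background.

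**Figure D3:**
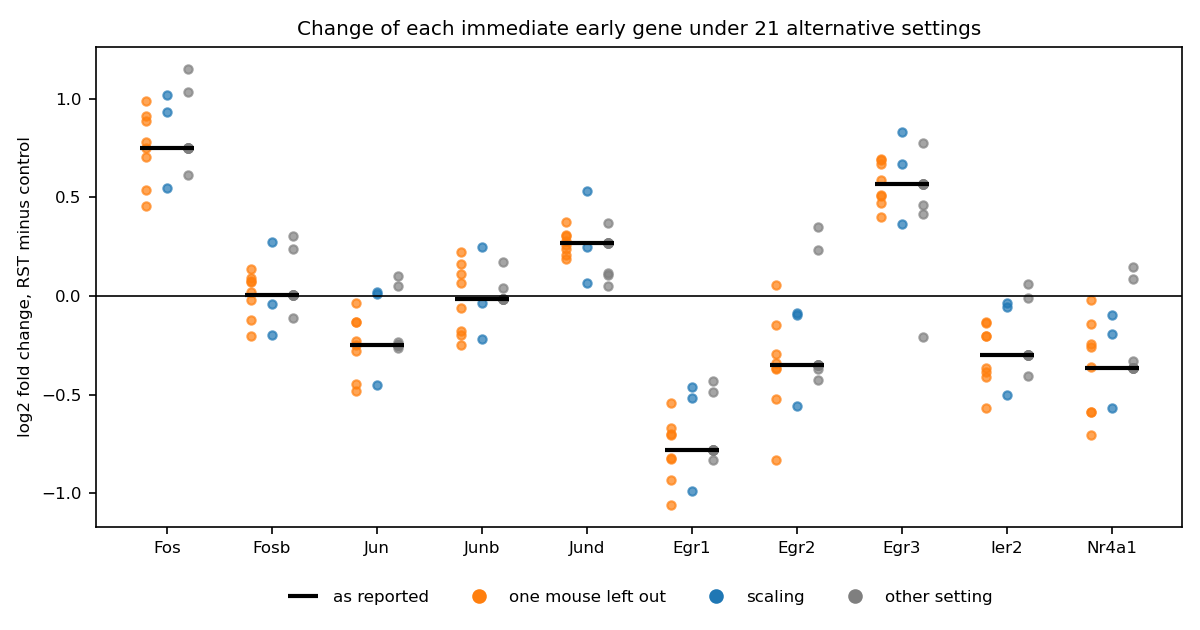
Log2 fold change (RST minus control) of each member gene as reported (black bar) and under 21 alternatives (points, colored for one mouse left out, another scaling, or another setting). Fos and Jund stay above 0 and Egr1 below 0 throughout, and each of the other 7 genes crosses 0 under at least 1 alternative.

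The rest of the early response was followed in 5 lists with 93 genes, of which 85 had a probe set with a single gene name and 76 passed the filter. None of the 76 passed the adjusted threshold in limma, 3 were higher and 3 lower under the looser threshold, and 49 had a lower mean. Over the whole array the looser threshold took 2.89% of tested probe sets as higher and 10.4% as lower, and 67.6% of genes had a lower mean. The lists were described by counts and medians only, beside the median gene at −0.24. Among the remaining FOS, EGR, NR4A and IER genes (6 of 8 tested, 4 with a higher mean, median log2 fold change 0.20), the smallest p belonged to Ier5 and Fosl2. Ier5, an early gene that is also a heat shock factor regulator, had 7.23, 7.89, 7.57 and 6.86 in RST mice, against 8.27, 8.38, 7.75 and 7.73 in control mice (difference −0.64, adjusted p = 0.37). Fosl2, which encodes the FOS relative FRA2, had 6.95, 8.63, 7.66 and 7.33 in RST mice, against 6.84, 7.36, 6.87 and 6.88 in control mice (0.65, adjusted p = 0.42). As for Fos, RST mouse 2 was the highest of the 8 mice.

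Among leucine zipper partners and the NAB corepressors of EGR (13 of 15 tested, 5 with a higher mean, median −0.081), Nab2 had 3.80 to 3.98 in RST mice, against 4.09 to 4.64 in control mice, without overlap (difference −0.47, adjusted p = 0.40). It was 1 of 13 genes here, and 1 of 15 feedback regulators did not overlap either. This is near the 7.99% of all tested probe sets without overlap. NAB2 is itself induced by EGR factors and represses them. Batf2, an AP-1 family member of macrophages, had 3.20 to 4.08 in RST and 2.82 to 3.30 in control mice (0.45, adjusted p = 0.47). Among 25 tested of 29 other early genes (11 with a higher mean, median −0.33), Cd69, an early activation antigen of lymphocytes, had 6.50 to 7.53 in RST and 7.51 to 8.08 in control mice (−0.69, adjusted p = 0.35). Plk2, a stress-induced kinase, had 3.36 to 3.98 in RST and 2.53 to 3.69 in control mice (0.73, adjusted p = 0.35).

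Upstream of these genes, 17 of 24 kinases and transcription factors had a probe set with a single gene name and were tested, 4 with a higher mean and a median log2 fold change of −0.49. Elk4, a partner of serum response factor at the CArG box, had 8.68 to 9.44 in RST mice, against 8.05, 8.33, 6.46 and 8.97 in control mice (difference 1.05, adjusted p = 0.36). The lowest value was that of control mouse 3, the mouse with the largest actin 3′ minus 5′ difference. Elk4 has 4 probe sets, of which only the brightest past the filter is given. Map2k2, the kinase MEK2 that activates ERK, had 8.23, 8.20, 8.21 and 7.30 in RST mice, against 7.15, 7.08, 7.41 and 7.39 in control mice (0.73, adjusted p = 0.33). RST mouse 4 was the exception among the RST mice for Map2k2. Of the feedback regulators, 15 of 17 were tested, 3 with a higher mean and a median of −0.44. Nfkbia, the inhibitor of NF-kB, had 9.41 to 10.06 in RST and 9.98 to 10.51 in control mice (−0.59, adjusted p = 0.36). Spry2, an inhibitor of the ERK pathway, had 4.75 to 5.91 in RST and 5.26 to 6.65 in control mice (−0.85, adjusted p = 0.37).

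**Figure D4:**
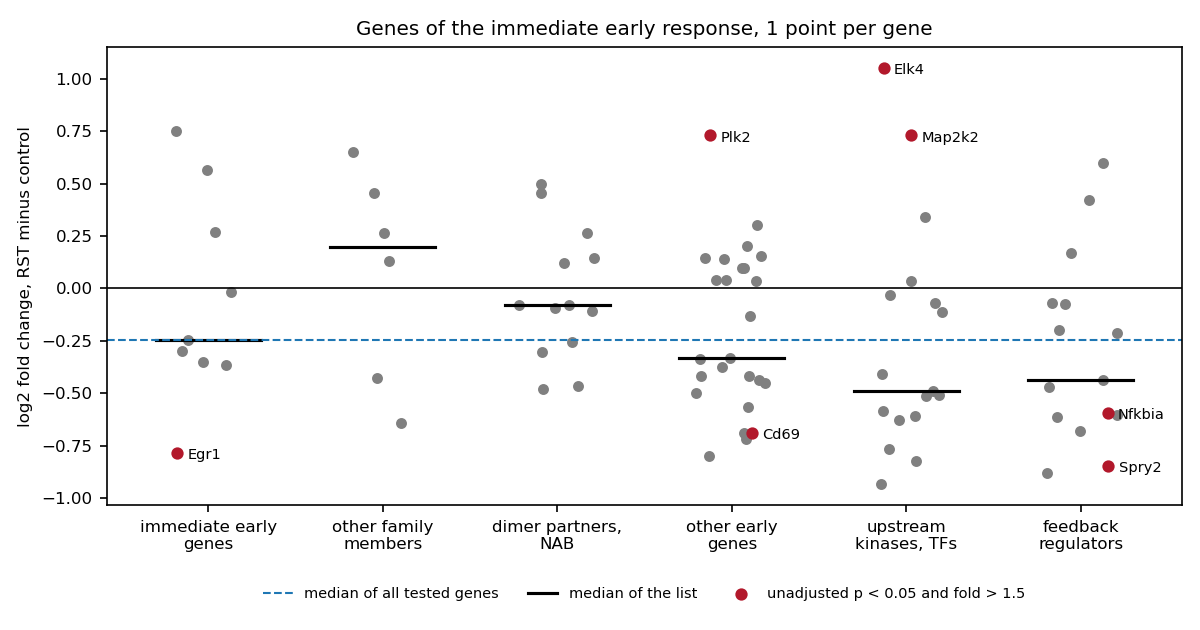
Log2 fold change (RST minus control) of the 9 tested member genes and of 76 genes in 5 lists of the immediate early response, 1 point per gene at its brightest probe set, with list medians (black) and the median of all tested genes (dashed, −0.24). Genes past the looser threshold (unadjusted p under 0.05, fold above 1.5) are named, and none passed after adjustment.

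Each marker of a blood cell type was set against its own mean over the 8 mice on the log2 scale. These deviations were averaged per array, less the median deviation of all tested genes in that array. The sums are of the log2 levels themselves. None of the 48 tested markers passed the adjusted threshold. The 8 tested of 10 B cell markers lay at −0.64 to −0.11 in RST mice, against −0.042 to 0.72 in control mice, with summed levels of 61.0 to 63.0 and 65.9 to 73.8. The 7 tested of 10 T cell markers lay at −0.53 to −0.054 in RST mice, against 0.029 to 0.48 in control mice (sums 45.8 to 53.4 and 53.3 to 58.0). Neither pair of averages overlapped, but the T cell sums did. Each of these 15 lymphocyte markers averaged less in RST blood, where 67.6% of all tested genes did. The 8 tested of 9 reticulocyte markers lay at 0.22 to 0.59 in RST mice, against −1.09 to −0.055 in control mice (sums 80.2 to 84.7 and 72.9 to 79.4), also without overlap. The 5 tested of 6 platelet markers lay at 0.13 to 0.29 in RST mice, against −0.47 to −0.067 in control mice (sums 50.6 to 52.9 and 50.7 to 51.9). These averages did not overlap either, but the sums did. The 5 tested of 6 NK cell markers lay at −0.46 to 0.036 in RST mice, against −0.18 to 0.34 in control mice (sums 31.9 to 36.7 and 35.1 to 38.9). The 7 tested of 10 neutrophil markers lay at −0.44 to 1.17 in RST mice, against −0.44 to 0.11 in control mice (sums 47.2 to 62.8 and 50.8 to 56.1), with the highest value in RST mouse 2. The 8 tested of 9 monocyte markers lay at −0.55 to 0.047 in RST mice, against −0.40 to 0.51 in control mice (sums 60.8 to 66.1 and 62.6 to 71.7), with the highest value in control mouse 2. For averages of several genes no share over the whole array was computed, so their lack of overlap has no background beside it. Taken singly, 6 of the 8 B cell, 1 of the 7 T cell and 5 of the 8 reticulocyte markers did not overlap. The same held for 2 of the 5 NK cell, 2 of the 8 monocyte, 0 of the 5 platelet and 0 of the 7 neutrophil markers. Of all tested probe sets 7.99% did not. The part of these cell types in the levels of the members was not tested.

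The 5 genes whose profile over the 8 mice was most like the mean of the 9 standardized member genes, out of 11753 compared, were Thbd (Pearson r 0.984, Spearman rho 0.929), which encodes thrombomodulin, Etf1 (0.976 and 0.905), the translation release factor, Tmem154 (0.973 and 0.976), Tbc1d10b (0.972 and 0.976) and Clasp2 (0.968 and 0.881), a microtubule-binding protein. These 5 have RST minus control differences of −0.16 to 0.10 on the log2 scale. The points share array and scaling, and the values are a description. Thbd had 5.64, 7.13, 7.03 and 4.98 in RST mice, against 6.53, 7.17, 5.52 and 6.18 in control mice, high in RST mice 2 and 3 and control mouse 2 and low in RST mouse 4.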

How the data were processed

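Whole-blood RNA of 8 female mice (4 RST, 4 control) was measured on 1-color Affymetrix arrays. The labels only number the replicates, and the paper counts them as mice. By the methods, cages and not single mice were assigned to the groups. The cage of each mouse is not given, so shared cages could not be taken into account. The deposited log2 values came from the authors' RMA-type processing. Which normalization between arrays it included was not checked, and array levels differ in the values. The tools listed by the submitters are RMA, Partek and Affymetrix Expression Console (version 1.2.0.20), and GSRMA is the summary method given in the paper's methods. Presence calls were not used here, and an intensity filter took their place. The number of arrays limits the precision.

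RST and control were compared in limma 3.58.1 (R 4.3.3; lmFit, eBayes) on the 25084 probe sets past the filter, with Benjamini-Hochberg adjustment over all of them. A fit over all probe sets except the 64 controls gave values of members below the filter. A call needed an adjusted p under 0.05 together with a fold above 1.5. Gene symbols of the platform annotation were brought up to date by Entrez number for 34741 probe sets. Every member is named with each of its probe sets, a gene is represented by its brightest one past the filter, and the 2 genes with the smallest p are named per list. Ppbp, S100a8, Cd79b, Epb42 and Pax5 were named after their values were seen. Members and lists were chosen with earlier results of these data known. The fit was tested on simulated data. Alternatives changed the filter, scaling, floor, prior, test, weights, covariate, block, probe set rule and each mouse. Figures were drawn with matplotlib 3.10.9.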

Additional observations from a re-analysis of the deposited data

Results flagged for a closer look

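Among the RST mice, the dimmer Jund probe set had a log2 level of 3.58 in mouse 3, far from the nearest RST mouse at 2.78. Control mouse 3 was likewise the highest control mouse there, at 3.62. The probe set lay below the intensity filter, and 1 of 28 groups checked was flagged, where chance flags about 1 in 20.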

How the results depend on the processing

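No alternative put a member past the adjusted threshold. Under the looser threshold (unadjusted p under 0.05, fold above 1.5) the count of member probe sets was 1 (Egr1) as reported. It was 2 (Fos and the brighter Egr3 probe set, both higher in RST mice) after quantile normalization or with equal medians, 3 with array weights (Egr1, and both Egr3 probe sets in opposite directions), 0 with the methods' analysis of variance, and 0 to 2 on leaving out 1 mouse. Leaving out control mice 1 and 2, chosen after seeing the data, gave 0. Averaging probe sets gives no such count. With a trended prior or the hybridization covariate it stayed at 1, but the probe set was Fos. The replicate block gave 3 (Fos, Egr1 and the dimmer Egr3 probe set, the last 2 lower in RST mice). Deviations of mice of the same number correlated at −0.24, 0.42, 0.046 and 0.20, and those of unlike number at −0.54 to 0.52. With 4 mice per group these correlations cannot show whether mice of the same number were processed together. Over all 25084 tested probe sets the looser threshold took 3337 as reported, 2989 after quantile normalization and 3270 with equal medians. With array weights it took 5539, with the replicate block 4234 and with the trended prior 3256. The covariate gave 2091 and the methods' analysis of variance 2264. Leaving out 1 mouse gave 1731 to 4933, and leaving out control mice 1 and 2 gave 856. The member counts are to be read beside these totals. The median over the 10 genes ran from −0.34 with equal control probe sets to 0.14 with the covariate.

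Fos, Jund and Egr1 kept their sign under each of 21 alternatives, and the other 7 genes did not. Quantile normalization put Fosb at −0.041 and Jun at 0.0083, and equal medians put Jun at 0.017 and Junb at 0.25. Equal control probe sets put Fosb at −0.20, and array weights put it at −0.11. The covariate put Jun at 0.052, Junb at 0.17, Egr2 at 0.23, Ier2 at 0.059 and Nr4a1 at 0.088. Averaging probe sets put Egr3 at −0.21. Without control mice 1 and 2, Jun was at 0.10, Junb at 0.040, Egr2 at 0.35 and Nr4a1 at 0.15. On leaving out 1 mouse Fosb ran from −0.20 to 0.14, Junb from −0.25 to 0.22 and Egr2 from −0.83 to 0.057. The causes were not tested. Scaling moved the share of lower probe sets among all those past the looser threshold, which was 78.3% as deposited, 52.7% after quantile normalization, 94.1% with equal control probe sets and 33.4% with equal medians. The number of arrays limits what can be called.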
